A study of Mus musculus with 12 samples.

Results

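Collagen crosslinking and hydroxylation enzymes were followed in mouse vascular anomalies of muscle. The set held 10 of the 30389 genes in the deposited table and was defined by name and function, with no measured value in its rule: the lysyl oxidases Lox, Loxl1, Loxl2, Loxl3 and Loxl4, the lysyl hydroxylases Plod1, Plod2 and Plod3, and the prolyl 4-hydroxylase alpha subunits P4ha1 and P4ha2. The deposited symbols gave 9 of them. The row of Loxl2 (ENSMUSG00000034205) bore the symbol Gm21451, which a GENCODE annotation of GRCm38 gives to a pseudogene elsewhere on chromosome 14, and was taken by its identifier.

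The study sequenced polyadenylated RNA from muscle of C57BL/6 mice in 12 libraries from 6 animals. In 3 animals the genotype was VEC-Cre, SB Transposase and onc3, and their libraries came from muscle vascular anomalies. VEC-Cre is Cre recombinase driven by the VE-cadherin promoter, which is active in endothelium, SB is Sleeping Beauty, and onc3 is a transposon that this transposase can move. The other 3 animals carried SB Transposase and onc3 without Cre and gave normal muscle. Every animal of both groups thus carried the transposase and the transposon, and the labels give no ages. Both libraries of an animal came from pieces of its tissue, except that anomaly animal 2 gave lesions numbered apart, and the animal was taken as the replicate (n = 3 per group). Numbers of animals and pieces follow the order of deposit.

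Collagen chains are modified in the endoplasmic reticulum and crosslinked outside the cell. Prolyl 4-hydroxylases, in which an alpha subunit pairs with protein disulfide isomerase, make the hydroxyproline that keeps the collagen helix folded at body temperature, and lysyl hydroxylases make the hydroxylysine that carries sugars and shapes later crosslinks. Both need iron, 2-oxoglutarate, oxygen and ascorbate. Lysyl oxidases are secreted copper enzymes that turn lysine and hydroxylysine side chains of collagen and elastin into aldehydes, which then react to form the crosslinks that give vessel walls and muscle connective tissue their strength.

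The sequences upstream of P4ha1 and P4ha2 are shown because each was among the 12 genes nearest to the other in profile over the 6 animals, of all genes tested, and because both are known targets of the hypoxia-inducible factors. Each is the 250 bases before the gene's start in RefSeq (GRCm38.p6), read on the plus strand, chr10:59323046-59323295 for P4ha1 and chr11:54100674-54100923 for P4ha2, where the window lay in an intron of a longer P4ha2 transcript. Capitals mark ACGTG and GCGTG, the core letters that hypoxia-inducible factors bind, on either strand.
P4ha1: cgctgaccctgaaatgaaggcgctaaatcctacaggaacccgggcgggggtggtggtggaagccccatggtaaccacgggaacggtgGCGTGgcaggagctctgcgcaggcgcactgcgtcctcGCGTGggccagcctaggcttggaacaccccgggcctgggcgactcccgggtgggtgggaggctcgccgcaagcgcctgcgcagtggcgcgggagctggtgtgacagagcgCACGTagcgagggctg
P4ha2: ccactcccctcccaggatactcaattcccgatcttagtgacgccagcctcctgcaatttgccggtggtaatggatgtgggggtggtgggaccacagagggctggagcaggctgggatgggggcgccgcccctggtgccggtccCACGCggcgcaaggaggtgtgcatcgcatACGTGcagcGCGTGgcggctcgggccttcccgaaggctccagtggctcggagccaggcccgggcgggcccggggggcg
Each window held 3 matches, 1 of ACGTG and 2 of GCGTG, none overlapping another. In P4ha1 they began 163, 126 and 16 bases before the start, and in P4ha2 107, 78 and 69 bases before it. RefSeq windows were held for 5 of the 10 enzymes, and those of Plod3 (4 matches), Plod1 and Loxl4 (1 match each) held these letters too. Of 32851 RefSeq promoter windows of this length, 38.6% held ACGTG or GCGTG, 16.6% the first and 28.2% the second. The endoplasmic reticulum stress element, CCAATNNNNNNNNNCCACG on either strand, was in neither window and in 0.113% of all windows. Letters that match are a description and show no binding.

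Levels are in CPM, read counts scaled by the authors to library size times a composition factor. That factor was larger in every anomaly library than in any normal library. The depth recovered from the values was 254404 to 18476461 reads for the anomaly and 17380211 to 32155879 for the normal libraries. In the shallowest, piece 1 of anomaly animal 1, a single read weighed 1.85 CPM against at most 0.0719 in the others. In it 18740 genes were detected, 7573 of them at 1 read, against 2356 to 3103 genes at 1 read in the others. Its units may not be reads as sequenced, which was not tested. The 50 most abundant genes held 47.7% to 50.8% of reads in normal muscle and 14.6% to 22.9% in anomaly tissue. The tissue label was checked against skeletal fibre markers (Ckm, Acta1, Myh4 and 5 others), whose summed level was 248720 to 306690 CPM in normal libraries and 198 to 32833 CPM in anomaly libraries. Summed endothelial markers came to 269 to 443 CPM in normal and 1844 to 5488 CPM in anomaly libraries. In bulk tissue fewer cells of a type and less RNA per cell cannot be told apart.

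Of the 10 enzymes, 6 were higher in anomaly tissue, none was lower and 4 were not called by limma at a Benjamini-Hochberg adjusted p under 0.05. Higher were Lox, Loxl1, Loxl2, Loxl3, Plod1 and Plod3, by 1.64 to 4.44 on the log2(CPM + 1) scale. Among all 14687 genes tested, 63.4% were called, 32.4% higher and 31% lower. The median difference was 1.76 over the 10 enzymes and 0.09 over all genes tested. All 6 anomaly libraries lay above all 6 normal libraries in 7 of the 10, the 6 called and Loxl4, against 28.8% of all genes, and in none did all lie below, against 27.6%. Plod2, P4ha1 and P4ha2 overlapped, as did 43.7% of all genes. Without Loxl2, whose level is uncertain for the reason given below, 5 of 9 were higher.

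**Figure D1:**
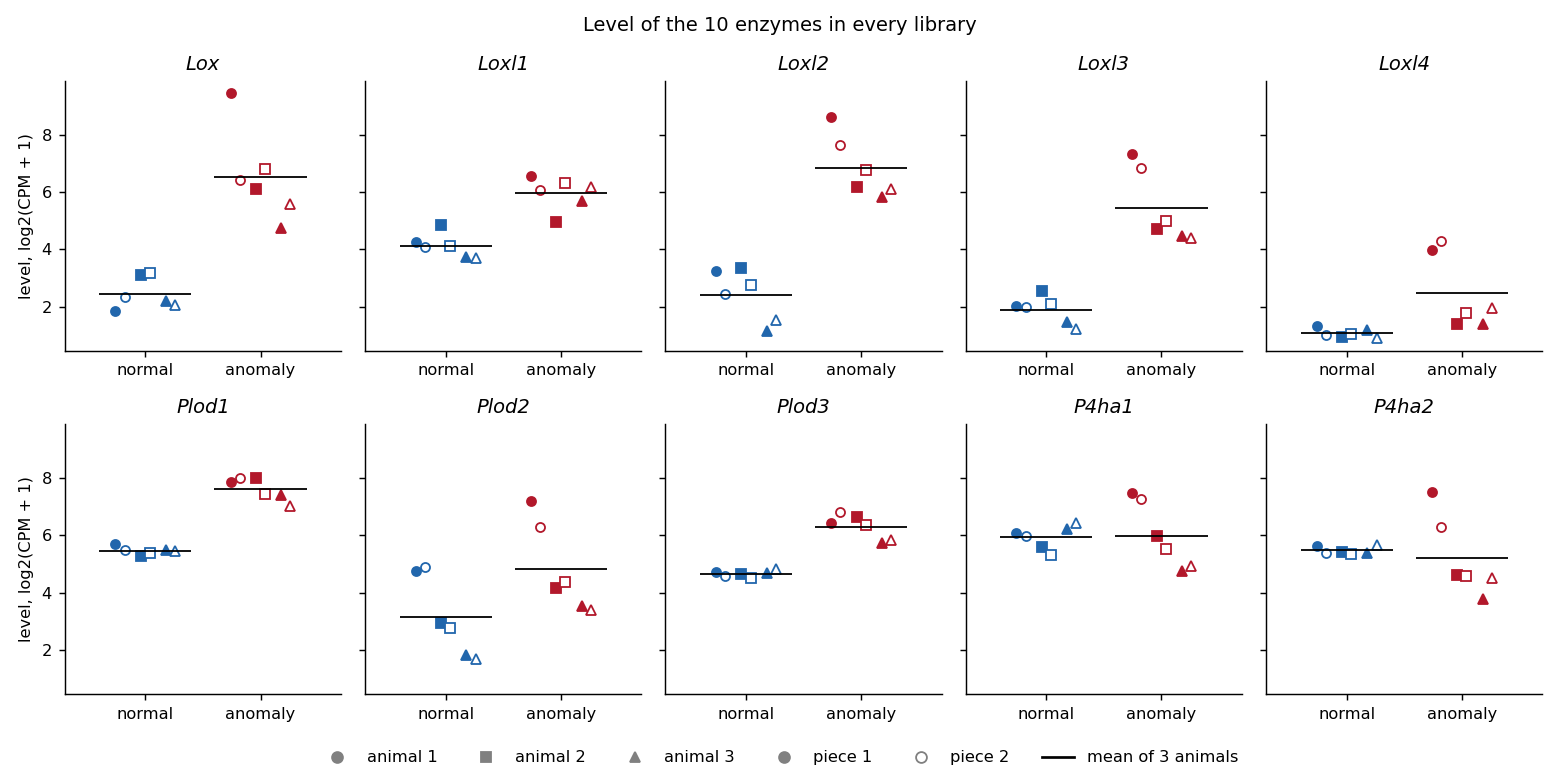
Level of each enzyme, log2(CPM + 1), in the 6 normal and 6 anomaly libraries, with the animal as shape, the piece as filled (1) or open (2), and a line at the mean of 3 animals. The groups are apart for all but Plod2, P4ha1 and P4ha2, and anomaly animal 1 (circles) has the highest anomaly mean in all 10 panels.

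Lox, the founding lysyl oxidase (ENSMUSG00000024529, GRCm38 chromosome 18, 52516067 to 52529867, minus strand), measured 697 and 85.6 CPM (animal 1), 68.4 and 111 CPM (animal 2), and 25.6 and 47.0 CPM (animal 3) in anomaly tissue. Normal libraries ran from 2.63 to 8.09 CPM, with a median of 3.83. Every anomaly library was above every normal one, and the 2 pieces of anomaly animal 1 were farther apart than the pieces of any other animal. The difference was 4.06 ± 0.71 log2 units (standard error, n = 3 animals per group, limma adjusted p = 0.00335), and 3.56 ± 0.46 with animal 1 represented by piece 2 alone (limma adjusted p = 0.00102).

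Loxl1, known for its part in elastic fibre upkeep (ENSMUSG00000032334, chromosome 9, 58287738 to 58313186, minus strand), measured 92.7 and 66.3 CPM (animal 1), 29.6 and 77.8 CPM (animal 2), and 50.2 and 71.6 CPM (animal 3) in anomaly tissue. The normal libraries lay between 11.9 and 27.8 CPM, with a median of 16.0. The groups were apart but close, since the lowest anomaly library, lesion 1 of animal 2, lay just above the highest normal library. The rise was 1.84 ± 0.27 log2 units (limma adjusted p = 0.00182), the smallest of the called lysyl oxidases.

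Loxl2, a lysyl oxidase with scavenger receptor domains that acts on basement membrane collagen IV (chromosome 14, 69609068 to 69695834, plus strand), measured 393 and 196 CPM (animal 1), 70.5 and 108 CPM (animal 2), and 55.5 and 68.3 CPM (animal 3) in anomaly tissue. Normal muscle ranged from 1.22 to 9.25 CPM, with a median of 5.09. The groups were far apart and animal 1 was highest. The difference, 4.44 ± 0.69 log2 units (limma adjusted p = 0.00218), was the largest of the 10. Of the 50-base stretches of Loxl2 transcripts, 42.9% also occur in transcripts of Gm21451, which has no row of its own among those used here, so reads could not be assigned to Loxl2 alone.

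Loxl3, also with scavenger receptor domains (ENSMUSG00000000693, chromosome 6, 83034173 to 83052562, plus strand), measured 161 and 115 CPM (animal 1), 24.9 and 30.8 CPM (animal 2), and 21.1 and 20.2 CPM (animal 3) in anomaly tissue. In normal muscle the range was 1.30 to 4.86 CPM, with a median of 3.05. Both pieces of animal 1 were far above the other 4 anomaly libraries, which in turn were above all normal libraries. The rise was 3.57 ± 0.71 log2 units (limma adjusted p = 0.00571). The end of Loxl3 overlaps Htra2 on the opposite strand in 8.54% of its 50-base stretches. The kit did not keep strand, so reads there cannot be told apart; Htra2 averaged 17.9 CPM in anomaly and 15.5 in normal tissue.

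Loxl4, another lysyl oxidase with scavenger receptor domains (ENSMUSG00000025185, chromosome 19, 42593982 to 42612813, minus strand), was the lowest of the family per length in both groups. It measured 14.8 and 18.5 CPM (animal 1), 1.64 and 2.44 CPM (animal 2), and 1.59 and 2.83 CPM (animal 3) in anomaly tissue, against 0.850 to 1.497 CPM in normal libraries with a median of 1.03. These values rest on 8 to 411 reads per anomaly library and 15 to 29 per normal library. The libraries did not overlap, yet the difference of 1.40 ± 0.69 was not called (limma adjusted p = 0.117, 95% interval -0.26 to 3.05), since animal 1 stood 3.07 above the normal mean and the others 0.53 and 0.59. Without anomaly animal 1 it was 0.56 ± 0.18 (limma adjusted p = 0.0395).

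Plod1, the lysyl hydroxylase of the helical part of collagen (ENSMUSG00000019055, chromosome 4, 147909753 to 147936767, minus strand), measured 233 and 252 CPM (animal 1), 252 and 173 CPM (animal 2), and 170 and 128 CPM (animal 3) in anomaly tissue. Normal libraries ran from 37.6 to 50.3 CPM, with a median of 43.1. All anomaly libraries were more than 2 times the highest normal one, and animal 3 was the lowest of the anomaly animals. The difference was 2.16 ± 0.22 log2 units, with the smallest adjusted p of the set (limma, 5.76e-04).

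Plod3, which also transfers sugars to hydroxylysine (ENSMUSG00000004846, chromosome 5, 136987019 to 136996648, plus strand), measured 85.2 and 111 CPM (animal 1), 99.0 and 81.2 CPM (animal 2), and 52.4 and 56.4 CPM (animal 3) in anomaly tissue. The normal range was 21.9 to 27.0 CPM, with a median of 24.3. The groups were apart, with animal 3 the lowest of the anomaly animals. The rise was 1.64 ± 0.24 log2 units (limma adjusted p = 0.00188). Plod3 shares 9.25% of its 50-base stretches with Znhit1 on the opposite strand, which averaged 16.9 CPM in anomaly and 31.9 in normal tissue.

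Plod2, the enzyme of the collagen ends (ENSMUSG00000032374, chromosome 9, 92542223 to 92608428, plus strand), measured 145 and 77.6 CPM (animal 1), 16.6 and 19.7 CPM (animal 2), and 10.5 and 9.39 CPM (animal 3) in anomaly tissue. In normal muscle it measured 26.0 and 28.7 CPM (animal 1), 6.74 and 5.75 CPM (animal 2), and 2.52 and 2.21 CPM (animal 3). Pieces of an animal were close while animals of the same group differed widely, and normal animal 1 was above anomaly animals 2 and 3. The difference of 1.68 ± 1.07 was not called (limma adjusted p = 0.208, 95% interval -0.91 to 4.26). Gm38391, which shares 5.51% of the 50-base stretches of Plod2 on the opposite strand, averaged 0.935 CPM in anomaly and 1.03 CPM in normal tissue.

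P4ha1 (ENSMUSG00000019916, chromosome 10, 59323296 to 59373304, plus strand), the main catalytic subunit in most tissues, measured 176 and 153 CPM (animal 1), 61.2 and 44.9 CPM (animal 2), and 25.7 and 29.4 CPM (animal 3) in anomaly tissue. Across normal libraries it was 38.2 to 84.1 CPM, with a median of 64.4. Animal 1 was above all normal libraries, animal 3 below all of them, and animal 2 within their range. The difference of the means was 0.05 ± 0.64 log2 units (limma adjusted p = 0.945, 95% interval -1.48 to 1.59), and 1.19 with library totals (limma adjusted p = 0.157).

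P4ha2 (ENSMUSG00000018906, chromosome 11, 54100095 to 54131665, plus strand), an alpha subunit prominent in cartilage, bone and endothelium, measured 180 and 77.9 CPM (animal 1), 23.4 and 23.1 CPM (animal 2), and 12.6 and 21.5 CPM (animal 3) in anomaly tissue. Normal libraries were tight, from 39.8 to 49.0 CPM with a median of 41.3. No anomaly library lay within the normal range, since animal 1 was above it and animals 2 and 3 below. The difference was -0.26 ± 0.69 log2 units (limma adjusted p = 0.753, 95% interval -1.93 to 1.41). It was 0.87 with scaling by library totals, which moved the median of all genes from 0.09 to 0.97. Without anomaly animal 1 it was -1.10 and was called lower (limma adjusted p = 0.00431).

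P4ha3, the remaining alpha subunit, lies outside the set and is named after its values were seen. It had 7 to 336 reads in anomaly libraries, 3.80 to 15.1 CPM, and 0 reads in 5 normal libraries and 1 read in the other. Its mean was 8.72 ± 4.95 CPM in anomaly and 0.0104 ± 0.0180 CPM in normal tissue (SD, n = 3).

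**Figure D2:**
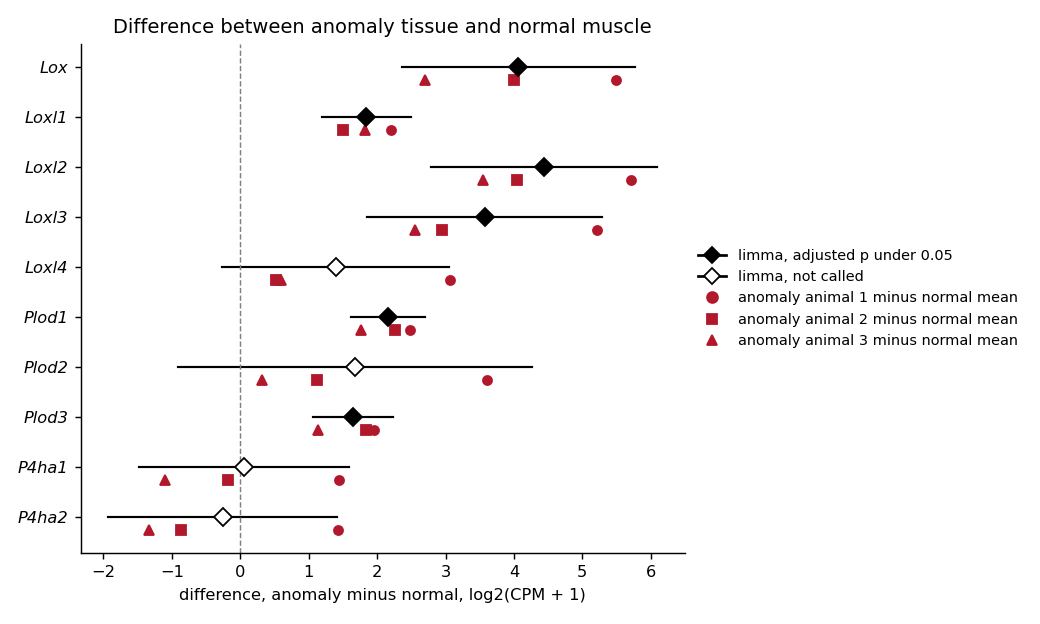
Difference of each enzyme between anomaly and normal tissue in log2(CPM + 1), as the limma estimate (diamond, filled when called) with its 95% interval, and each anomaly animal minus the normal mean (red). Animal 1 lies to the right of the other animals for all 10, and P4ha1 and P4ha2 have animals on both sides of 0.

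The anomaly animals differed from each other in most of these genes. In limma's F test over libraries, whose p measures only the spread between pieces, 8 of the 10 differed among anomaly animals against 35.1% of all genes. Loxl1 (adjusted p = 0.383) and Plod1 (adjusted p = 0.0801) were the exceptions, and Plod2 had the smallest adjusted p (3.92e-05), followed by P4ha1 (5.69e-05) and Loxl3 (6.21e-05). Animal 1 was the highest of the anomaly animals in 10 of 10 genes, against 28.5% of all genes, and the order animal 1, 2, 3 from highest to lowest held in 8 of 10, against 18.6%; these orders were not tested. The median gap between the highest and the lowest anomaly animal was 2.54 log2 units over the 10 enzymes and 0.75 over all genes. Among normal animals these gaps were 0.82 and 0.29, and only Plod2 differed (limma F adjusted p = 8.69e-04), against 1.08% of all genes.

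The shallow library was then left out. Piece 2 of animal 1 by itself lay above every library of animals 2 and 3 in 7 of the 10 genes, all but Lox, Loxl1 and Plod1. The share of all genes with this pattern was not worked out, so this count has no background. With that piece standing for the animal the F test again called 8 of 10, against 44.5% of all genes, with the spread taken from the pieces of the other animals. Without animal 1 the F test called 4 of 10, Lox, Plod2, Plod3 and P4ha1, against 31.8% of all genes. Summed levels of the erythroid genes Alas2, Slc4a1 and Hba-a1 had the order of most of the enzymes. They were 8159, 542.6 and 152 CPM in anomaly animals 1, 2 and 3. Summed dividing-cell markers were 378, 334 and 312 CPM. None of the markers Mki67, Top2a, Cdk1 and Ccnb1 differed among these animals (limma F adjusted p 0.228 to 0.911), and Mki67 and Cdk1 were highest in animal 3. Summed skeletal fibre markers were 1087, 321 and 21761 CPM, macrophage markers 1790, 1982 and 458 CPM, endothelial markers 3031, 4357 and 4916 CPM and fibroblast markers 538, 952 and 1139 CPM. The part of any of these in the enzyme levels was not tested.

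Per kilobase of exon, family totals were taken over the enzymes of the set alone, so P4ha3 is not in them. Lysyl oxidases summed to 98.4 ± 83.5 CPM per kb in anomaly and 8.01 ± 2.79 in normal tissue, lysyl hydroxylases to 56.2 ± 21.2 and 14.0 ± 2.95, and P4ha1 with P4ha2 to 28.9 ± 27.7 and 22.0 ± 4.74 (SD, n = 3 animals). The anomaly totals rest in part on animal 1, without which they were 50.3, 45.3 and 13.03 CPM per kb, the last below the normal mean. With animal 1 by piece 2 alone the lysyl oxidase total was 68.1 ± 31.8 CPM per kb. Within the lysyl oxidases, Loxl1 held 65.0% of the total in normal muscle and 28.2% in anomaly tissue, where Lox held 28.1% and Loxl2 28.8%. The Lox share was 34.2%, 32.7% and 17.5% in anomaly animals 1, 2 and 3. That of animal 1 averages 2 pieces with Lox at 697 CPM (the shallow library) and 85.6 CPM. Shares without the shallow library were not worked out. In normal muscle Lox held 12.8% and Loxl2 11.0%. Loxl3 held 7.59% in normal and 13.3% in anomaly tissue, and Loxl4 3.61% and 1.60%. In the other families Plod1 held 46.2% in normal and 54.6% in anomaly tissue, and P4ha1 held 67.5% and 72.0% of P4ha1 plus P4ha2.

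**Figure D3:**
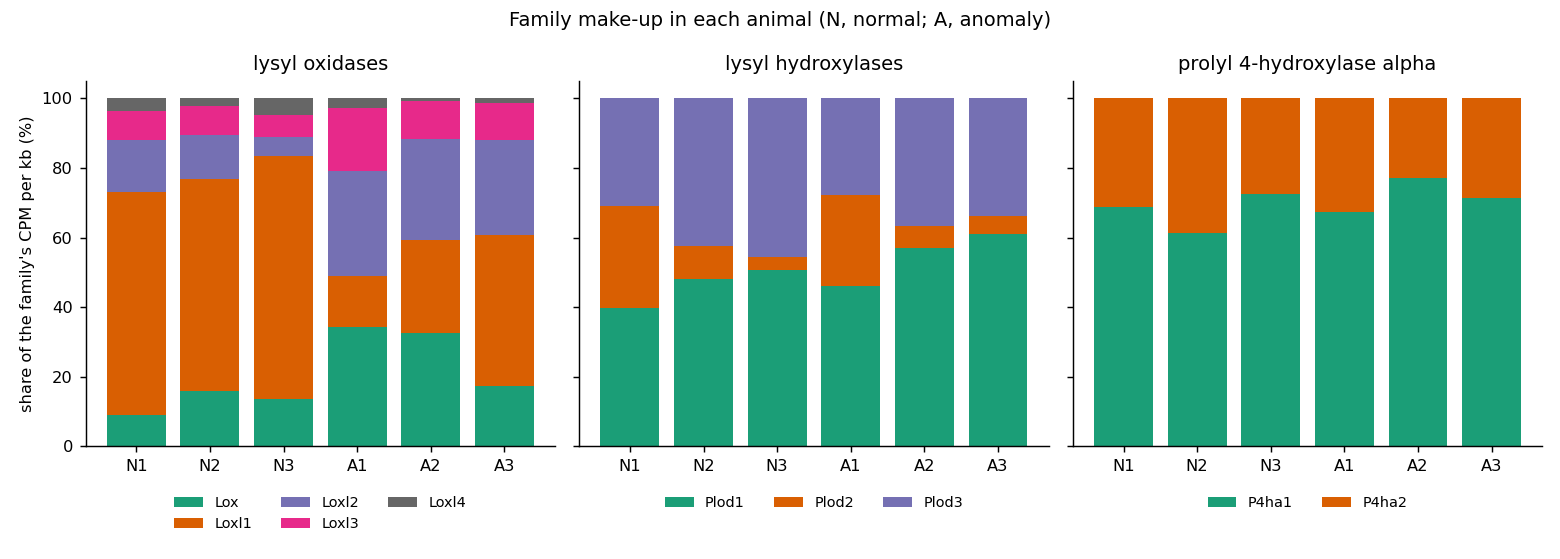
Share of each gene in its family's summed CPM per kb of exon (%), as stacked bars for normal animals N1 to N3 and anomaly animals A1 to A3. Loxl1 (orange, left) takes 61.0% to 69.9% in normal animals and 14.6% to 43.3% in anomaly animals. The bars of A1 include the shallow library.

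In normal muscle P4ha1 was the most abundant per length, at 15.0 ± 4.38 CPM per kb. P4ha2 (6.97 ± 0.386), Plod1 (6.35 ± 0.587), Plod3 (5.38 ± 0.333) and Loxl1 (5.15 ± 1.51) followed. The next were Plod2 (2.22 ± 2.49), Lox (1.01 ± 0.538), Loxl2 (0.959 ± 0.590), Loxl3 (0.624 ± 0.278) and Loxl4 (0.262 ± 0.0310), all in CPM per kb (SD, n = 3). Of neighbours in this order, Plod3 with Loxl1, Plod2 with Lox, Lox with Loxl2 and Loxl2 with Loxl3 differed by less than the larger of their SDs, and the other neighbours by more. In anomaly tissue the order was Lox (36.1 ± 40.0), Plod1 (29.7 ± 7.07), Loxl2 (27.5 ± 23.5), P4ha1 (19.8 ± 17.7), Loxl1 (19.6 ± 4.04), Plod3 (17.9 ± 5.13), Loxl3 (13.5 ± 14.3), P4ha2 (9.04 ± 10.1), Plod2 (8.61 ± 10.4) and Loxl4 (1.65 ± 1.99) CPM per kb. No neighbours in that order differed by more than the larger of their SDs. The first place of Lox rests on the shallow library, since with piece 2 alone for animal 1 Lox was at 14.8 ± 6.22 CPM per kb and ranked 6, and Plod1 ranked 1 at 30.2 ± 7.67.

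Ratios were taken within each library as differences of log2(CPM + 1). The scaling between libraries enters them only through the added 1, which weighs most for low genes such as Loxl4 and, in normal muscle, Lox. In all, 19 were compared with a two-sided exact permutation test over 3 against 3 animals. It cannot give a p below 0.1 (0.211 after Benjamini-Hochberg adjustment over the 19). Relative to the summed fibrillar collagens Col1a1, Col1a2 and Col3a1, 6 of the 10 enzymes had all anomaly animals below all normal animals, each at that smallest exact p. Of all genes tested 91.1% lay below in this way, and the median gene differed by -4.34, since these collagens rose by 3.93 to 4.88 log2 units. A share of 6 in 10 is thus under the background, and the median of the 10 enzymes was -2.67. The log2 ratio to collagen differed by -4.37 for P4ha1, -4.69 for P4ha2, -3.03 for Loxl4, -2.78 for Plod3, -2.59 for Loxl1 and -2.26 for Plod1. For Lox (-0.36, exact p = 0.6), Loxl2 (0.01, exact p = 1), Loxl3 (-0.85, exact p = 0.4) and Plod2 (-2.75, exact p = 0.2) the animals overlapped. With 3 animals per group this overlap does not show that a ratio was unchanged, and Plod2 overlapped at -2.75. The ratios of Lox, Loxl2 and Loxl3 had SDs of 0.96, 0.97 and 1.27 among anomaly animals. Each of these 3 genes rose by more than 3 log2 units in log2(CPM + 1).

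**Figure D4:**
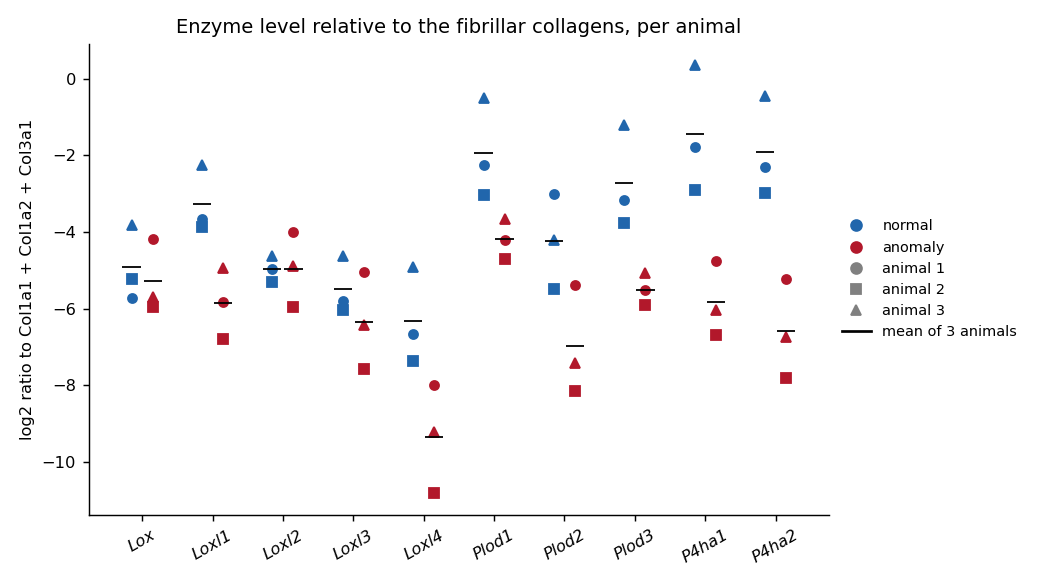
The log2 ratio of each enzyme's CPM to the summed CPM of Col1a1, Col1a2 and Col3a1, averaged over the libraries of each animal, for normal (blue) and anomaly (red) animals with a line at the mean of 3. The groups overlap for Lox, Loxl2, Loxl3 and Plod2 and are apart for the other 6.

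Between enzymes, Loxl1 and Loxl4 were lower relative to Lox in all anomaly animals, by -2.23 and -2.67 log2 units, and Plod3 was lower relative to Plod1 by -0.52. Each was at the smallest exact permutation p of 0.1. The ratio of P4ha2 to P4ha1 was -0.77 ± 0.34 in anomaly and -0.46 ± 0.37 in normal animals (SD, n = 3, exact permutation p = 0.5). P4ha1 plus P4ha2 relative to P4hb, the partner subunit, was -2.55 ± 0.82 in anomaly and -1.53 ± 0.38 in normal animals (exact permutation p = 0.2).

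Likeness was taken as the root mean square difference between profiles over the 6 animals, each centred on its mean, in log2(CPM + 1), where a small value means alike. P4ha1 and P4ha2 were 0.33 apart, against medians of 1.05 and 1.12 from these genes to all genes tested. The partner P4ha2 ranked 6 among all genes by likeness to P4ha1, whose nearest was Aldh1l2 (0.21), and P4ha1 ranked 12 for P4ha2, whose nearest was Gpat3 (0.24). Plod1 and Plod3 were 0.28 apart, but each had many nearer genes, with ranks of 251 for Plod3 and 374 for Plod1, and with Mob1a nearest to Plod1 (0.087) and Creld2 to Plod3 (0.072). Lox and Loxl3 were 0.45 apart, with Cd53 nearest to Lox (0.19) and Nox4 to Loxl3 (0.22). The nearest to Loxl1 was Tmtc2 (0.15), to Loxl2 Adam19 (0.37), to Loxl4 Crhbp (0.11) and to Plod2 Egr2 (0.67), which was the least close match of any of the 10.

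Transcripts of the proteins that work beside these enzymes in the endoplasmic reticulum were mostly higher in anomaly tissue. Of 13 collagen modification and folding partners, 11 were higher, none was lower and 2 (P4hb and Colgalt2) were not called, with a median difference of 2.10. Among all genes tested, 32.4% were called higher and 31% lower. Ppib, a prolyl isomerase, rose by 2.54 and its partners Crtap and P3h3 by 3.05 and 3.11, while the collagen chaperone Serpinh1 rose by 3.45 log2 units (limma adjusted p from 1.62e-04 to 7.72e-04). P4hb averaged 616 ± 243 CPM in anomaly and 303 ± 36.3 in normal tissue (SD, n = 3) and was not called (limma adjusted p = 0.0519).

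Of 14 tested genes of procollagen processing and secretion, 9 were higher, 3 lower and 2 not called, with a median of 1.82. The shares over all genes were 32.4% higher and 31% lower. The protease Adamts2, which removes the amino-terminal propeptide, rose by 2.74, Tll1 by 2.50 and Sparc, a collagen-binding protein, by 4.73 log2 units. The secretion genes Mia3 (-1.25), Mia2 (-0.93) and Sec23a (-1.71) were lower with the deposited scaling, but none was called with library totals, where Mia2 was at 0.21. Of 14 partners and substrates of lysyl oxidases, 10 were higher, none was lower and 4 were not called (Fbln5, Fmod, Tnxb and Eln), with a median of 4.08. Postn rose by 6.73, Col5a2 by 4.32 and the basement membrane chains Col4a1 and Col4a2 by 4.78 and 4.43 log2 units. Elastin, Eln, averaged 81.6 ± 85.8 CPM in anomaly and 29.0 ± 12.96 in normal tissue (SD, n = 3). Its difference was 0.22 ± 1.45 log2 units (standard error, limma adjusted p = 0.899). In log2(CPM + 1), anomaly animals 1, 2 and 3 were at 1.55, 6.12 and 7.43, and normal animals at 5.45, 4.82 and 4.17. Animal 1 was thus below all normal animals and animals 2 and 3 above them.

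Other crosslinking enzymes were higher in 4 of 4 tested genes: Pxdn, the peroxidase that crosslinks collagen IV, by 4.49, F13a1 by 2.64, and the transglutaminases Tgm2 by 1.44 and Tgm1 by 1.27 log2 units. Tgm3 was too low to test. Of 7 tested genes of copper and ascorbate supply, 3 were higher (Atox1 by 1.56, Slc23a2 by 1.18 and Slc31a1 by 0.90), none was lower and 4 were not called. Beside these counts, 32.4% of all genes were called higher and 31% lower. Slc31a2 also had a difference of 0.90 and was not called. With library totals 6 of 7 were higher, as were 8962 of all 16072 genes tested in that setting. Of 9 genes of collagen degradation and its inhibitors, 5 were higher, none was lower and 4 were not called, and with library totals 8 were higher. The collagenases Mmp14 and Mmp13 rose by 4.36 and 3.68, the protease Ctsk by 2.97 and the collagen uptake receptor Mrc2 by 2.65, and so did Timp1, an inhibitor of metalloproteinases, by 5.51 log2 units.

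Among 8 genes of the oxygen-sensing prolyl and asparaginyl hydroxylases and their targets, 1 was higher and 4 were lower, with a median of -0.75. The shares of all genes were 32.4% higher and 31% lower. Hif1a rose by 2.11, and Hif1an (-3.26), Egln1 (-2.51), Egln2 (-1.89) and Arnt (-0.60) were lower. With library totals 3 were higher and 2 lower, the median was 0.19 and Arnt was at 0.54. None of the collagen hydroxylases of the set was called lower over all animals. Of the oxygen-sensing hydroxylases 3 were lower with the deposited scaling, and Egln3 (1.03) and P4htm (-0.90) were not called.

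Markers of cell types were compared between the groups in the same fit, in which 32.4% of all genes were higher and 31% lower. Higher in anomaly tissue were 8 of 8 endothelial, 8 of 8 macrophage, 4 of 4 dividing-cell and 5 of 8 mural markers, of which 1 was lower, and the 3 erythroid genes, at 113 to 9261 CPM in anomaly and 16.7 to 51.5 CPM in normal libraries. Of 8 skeletal fibre markers 7 were lower, with a median of -7.34, as were 3 of 4 Schwann and 1 of 6 adipocyte markers. With library totals 1 Schwann marker was lower and of the adipocyte markers 1 was higher and none lower, and without anomaly animal 1 the fibre markers called lower were 4. Of 8 fibroblast markers 2 were higher and none was lower, with a median of -0.32, which was 0.76 with library totals and 0.50 without anomaly animal 1. Of 3 tested tendon and cartilage markers 1 was higher, and none without anomaly animal 1. Summed macrophage markers were 31.3 to 194 CPM in normal and 453 to 2524 CPM in anomaly libraries, and fibroblast markers 124.7 to 525.5 and 308 to 1306 CPM. No defining marker of endothelium, fibroblasts or macrophages was at 0 in all libraries of either group, and the part of the cell make-up in the enzyme differences was not tested.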

How the data were processed

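Messenger RNA from 12 mouse muscle libraries was analysed. Per the labels' protocols, libraries were made with an unstranded Illumina TruSeq kit after selection of polyadenylated RNA. The submitters' processing notes name STAR, limma and mm10 (GRCm38), without versions. The authors deposited log2 values of CPM for 30389 genes, in which unread genes share the floor -6.707. CPM was recovered by removing it. In every library 100% of the values were whole multiples of 1 step within 0.01, taken as reads, which gave the depth. The size behind the deposited log2 values included a composition factor, 1.28 to 1.90 in anomaly and 0.636 to 0.715 in normal libraries.

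The 2 libraries of an animal were averaged as log2(CPM + 1). Genes whose mean reached 1 CPM in either group, 14687 in all, were fitted with limma 3.58.1 in R 4.3.3 (mean trend, no robust option), and p-values were adjusted by Benjamini-Hochberg over all of them, with calls at 0.05. All 10 enzymes passed this filter. Since the table held log2 values, no count model was used as the main test. Differences among animals used limma's F test on the 12 libraries. Ratios used exact permutation (scipy 1.17.1). Exon lengths, positions and shared 50-base stretches were read from GENCODE for GRCm38, which held 30294 of the 30389 identifiers. Upstream sequences came from RefSeq, which matched 5 of the 10 with chromosome 18, where Lox lies, left out. Intervals cover the spread between animals, and the shallow library holds 8 to 376 recovered units per enzyme.

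The rule that defines the enzymes uses names alone, but it, the lists and the tests were chosen with earlier results of these data known. All 10 enzymes were named, with up to 4 genes of smallest p per list, or all in lists of 5 or fewer, and the nearest gene and enzyme by profile. P4ha3, P4hb and Mrc2, genes not called and those that changed direction with the scaling are named beyond this rule. The fit was first tested on simulated data (200 changed genes). Alternatives were other scalings, filters, pseudocounts, pieces alone, 12 libraries with animals as random blocks, and leaving out animals. Added after the data were seen were voom on recovered reads and leaving out single libraries, also for levels per kilobase. 1 gene of a marker list is not reported here, so erythroid genes are given as a list of 3, made after the data were seen.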

Additional observations from a re-analysis of the deposited data

How the results depend on the processing

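Over 32 alternatives each, Lox, Loxl1, Loxl2, Loxl3, Plod1 and Plod3 remained called higher, with a highest limma adjusted p of 0.0350 (Loxl1), and Plod2 was never called (adjusted p 0.0610 to 0.509). With library totals in place of the deposited scaling, 8962 genes were higher and 1850 lower, against 4765 and 4553, the share of higher among called genes was 82.9% against 51.1%, and the median of all genes moved from 0.09 to 0.97. Loxl4 was called with library totals (2.19, adjusted p = 0.0403) and over 12 libraries in 1 fit with animals as random blocks (adjusted p = 0.0253). The sign of P4ha1 and P4ha2 changed under several. P4ha1 was 1.19 with library totals, -0.011 with median-of-ratios factors, -0.028 with voom, -0.64 without anomaly animal 1, -0.19 without normal animal 2 and -0.019 without piece 1 of anomaly animal 2, and between -0.64 and 0.63 over all omissions of animals or libraries (0.13 without piece 2 of anomaly animal 2). P4ha2 was 0.87 with library totals, 0.046 without anomaly animal 2 and 0.28 without anomaly animal 3. Its lowest value was -1.10, without anomaly animal 1. Apart from that last value neither was called; the cause was not tested. Leaving out animals or libraries gave 6 to 7 enzymes called higher and 0 to 1 lower. It gave 4 to 9 differing among anomaly animals, against 11.2% to 44.5% of all genes. Among normal animals 0 to 1 differed, against 0.279% to 2.06% of all genes. Without anomaly animal 1 the 1 lower was P4ha2 and 4 differed among the others, and without normal animal 1 none differed among normal animals. Of 76 ratio values under alternatives 74 moved by less than the spread between animals and 2 by more. voom on recovered reads called 8912 genes.

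Piece numbers, which follow the order of deposit, did not pair the samples: the correlation of their deviations between animals ran from -0.199 to 0.156. Piece 1 is lettered A in the anomaly animals that bear letters and B in the normal animals. The piece number thus does not follow the letters across the groups, and a block by letter was not tested. With the piece number as a replicate block, 7 enzymes were higher (Loxl4 joined, adjusted p = 0.0320), as without that block, and 9793 genes were called against 9900. The F tests over animals called the same number of enzymes with this block, 8 and 1.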
